A study of Mus musculus with 21 samples.

Results

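The red cell membrane and skeleton genes described here were the 8 genes Sptb, Ank1, Epb41, Epb42, Slc4a1, Rhag, Kel and Gypc, of 18217 genes that had a symbol among the probes of a whole mouse genome array. They were taken by name, not by their measured values, through the RefSeq accession of each probe. All 8 were found, on 16 probes, and each gene was read from its brightest probe, the one with the highest mean over all arrays. A level is a log2 intensity from which the 75th percentile of its array was subtracted, so a level of 0 equals that percentile. All 8 passed the filter on dim probes, which asked that at least 1 fraction have all 3 of its arrays well above background. Sptb and Epb42 passed it through CFUe and Ter119 alone. Where CFUe or Ter119 is set against another fraction, both could therefore hardly be called lower.

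The samples were 21 arrays of 7 haematopoietic fractions, 3 arrays each, sorted out of C57BL/6 mouse bone marrow with no treatment given. The age and sex of the mice, and whether the 3 samples of a fraction came from separate mice, are not given in the sources used here, so p-values measure the spread between these samples, which may be technical. KLS cells were negative for the lineage antigens Ter119, Gr1, Mac1, CD41, CD8, CD4, CD3 and B220 and positive for ckit and sca1. PreMegE (CD150+ CD105- FCGrI/II-) and CFUe lead from KLS to the erythroid Ter119 fraction (CD71+ Ter119+). PreGM and GMP (CD150- FCGrI/II+) lead to the myeloid Mac1Gr1 fraction (Mac1+ Gr1+). The labels give CFUe and PreGM the same antigens, CD150- CD105- FCGrI/II-, and call every progenitor fraction sca1+. Fractions are therefore called here by their titles. Ly6a, which encodes Sca1, read 2.57 ± 0.17 (SD, n = 3) in KLS and -3.14 ± 0.22 in PreMegE, while 1 of 3 CFUe arrays measured it above background. Of 10 erythroid markers measured, all 10 were well above background on every array of CFUe, Ter119 and Mac1Gr1. The count was 9 in KLS, PreMegE and GMP and 8 in PreGM, so it does not set CFUe apart. The log2 of their summed level was 11.81 to 12.20 in Ter119 and 6.58 to 6.68 in CFUe. It was 5.36 to 5.54 in PreMegE, 5.26 to 5.39 in Mac1Gr1 and 3.47 to 3.96 in PreGM.

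A red cell keeps its shape through a mesh of spectrin rods joined at actin nodes and hung from the inner face of the membrane. Ankyrin and protein 4.2 tie spectrin to the band 3 anion exchanger and to the Rh complex, and protein 4.1 ties it to actin and to glycophorin C. Loss of spectrin, ankyrin, band 3 or protein 4.2 is known to cause hereditary spherocytosis, loss of protein 4.1 elliptocytosis, and several of the membrane proteins carry blood group antigens.

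Promoters are shown for 4 of the members that rose from PreMegE to CFUe, to set their sequences beside that shared rise. Any link between these sequences and the rise was not tested. The sequences are those of RefSeq on GRCm38.p6 and run from 250 bases before to 50 bases after the start of transcription, on the strand of the gene. Capitals mark hexamers that GATA factors are known to read, which are GATAA after an A or a T and likewise GATAG after an A or a T, or their reverse complements. The Kel promoter (chr6:41704276-41704575, minus strand) holds a match whose first base lies at -56 and another at -19 from the start. The Rhag promoter (chr17:40810899-40811198, plus strand) holds 1 at -31, the Epb42 promoter (chr2:121036828-121037127, minus strand) 1 at -226, and the Sptb promoter (chr12:76710498-76710797, minus strand) 1 at 13 bases past the start.
Kel: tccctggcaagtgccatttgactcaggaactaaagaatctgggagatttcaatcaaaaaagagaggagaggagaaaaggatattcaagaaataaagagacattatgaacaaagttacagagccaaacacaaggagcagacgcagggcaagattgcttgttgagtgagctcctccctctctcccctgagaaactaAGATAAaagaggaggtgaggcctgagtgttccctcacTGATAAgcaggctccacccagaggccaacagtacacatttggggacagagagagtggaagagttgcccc
Rhag: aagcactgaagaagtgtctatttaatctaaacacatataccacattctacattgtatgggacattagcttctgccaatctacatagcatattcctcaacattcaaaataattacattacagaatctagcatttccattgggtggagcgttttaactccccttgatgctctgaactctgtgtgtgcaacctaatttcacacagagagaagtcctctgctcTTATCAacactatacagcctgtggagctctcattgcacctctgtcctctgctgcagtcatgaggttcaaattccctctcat
Epb42: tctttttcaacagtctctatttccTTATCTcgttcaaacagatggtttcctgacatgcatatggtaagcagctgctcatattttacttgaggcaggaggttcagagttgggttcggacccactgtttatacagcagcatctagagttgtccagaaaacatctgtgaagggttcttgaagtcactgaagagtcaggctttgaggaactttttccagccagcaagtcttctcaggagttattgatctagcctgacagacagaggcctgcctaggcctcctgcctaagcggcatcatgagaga
Sptb: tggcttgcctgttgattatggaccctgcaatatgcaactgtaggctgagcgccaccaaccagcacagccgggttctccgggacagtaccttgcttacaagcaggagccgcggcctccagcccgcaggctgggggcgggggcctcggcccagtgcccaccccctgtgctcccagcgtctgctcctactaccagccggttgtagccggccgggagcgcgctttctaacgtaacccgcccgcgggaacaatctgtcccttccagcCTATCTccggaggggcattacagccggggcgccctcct

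Over the members, 7 promoters of 5 genes were searched, 3 of them of Epb41, and 6 of the 7 held at least 1 of these hexamers on either strand. Of all 32851 promoters of the same length, 29.76% held one. The degenerate letters CCNCNCCC take in the CACCC box read by Krüppel-like factors among other sequences. They were found on either strand in 3 of the 7, and in 49.47% of all promoters. Of the matches to CCNCNCCC in the members, only CCACCCCC in the Sptb promoter held the letters CACCC themselves. Outside such matches, the letters CACCC also stand in the printed promoters of Kel and, on the other strand, of Rhag. The letters CACCC alone were not counted over all promoters. Of the 4 promoters printed, those of Kel, Rhag and Epb42 held no match to CCNCNCCC. In that of Sptb the hexamer shared no base with one. Slc4a1 and Ank1 had no entry, and Gypc was not searched here.

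Along the erythroid path the 8 transcripts did not come up together. Kel and Ank1 rose first, from KLS to PreMegE. Sptb, Ank1, Epb42, Rhag and Kel rose from PreMegE to CFUe, and Slc4a1, Epb41, Sptb, Epb42, Ank1 and Kel from CFUe to Ter119. Slc4a1 made its whole rise at this last step, 3517-fold, whereas Rhag had made most of its rise by CFUe. Gypc was well above background in all 7 fractions, passed no erythroid step at 2-fold, and fell 20.2-fold from GMP to Mac1Gr1.

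**Figure D1:**
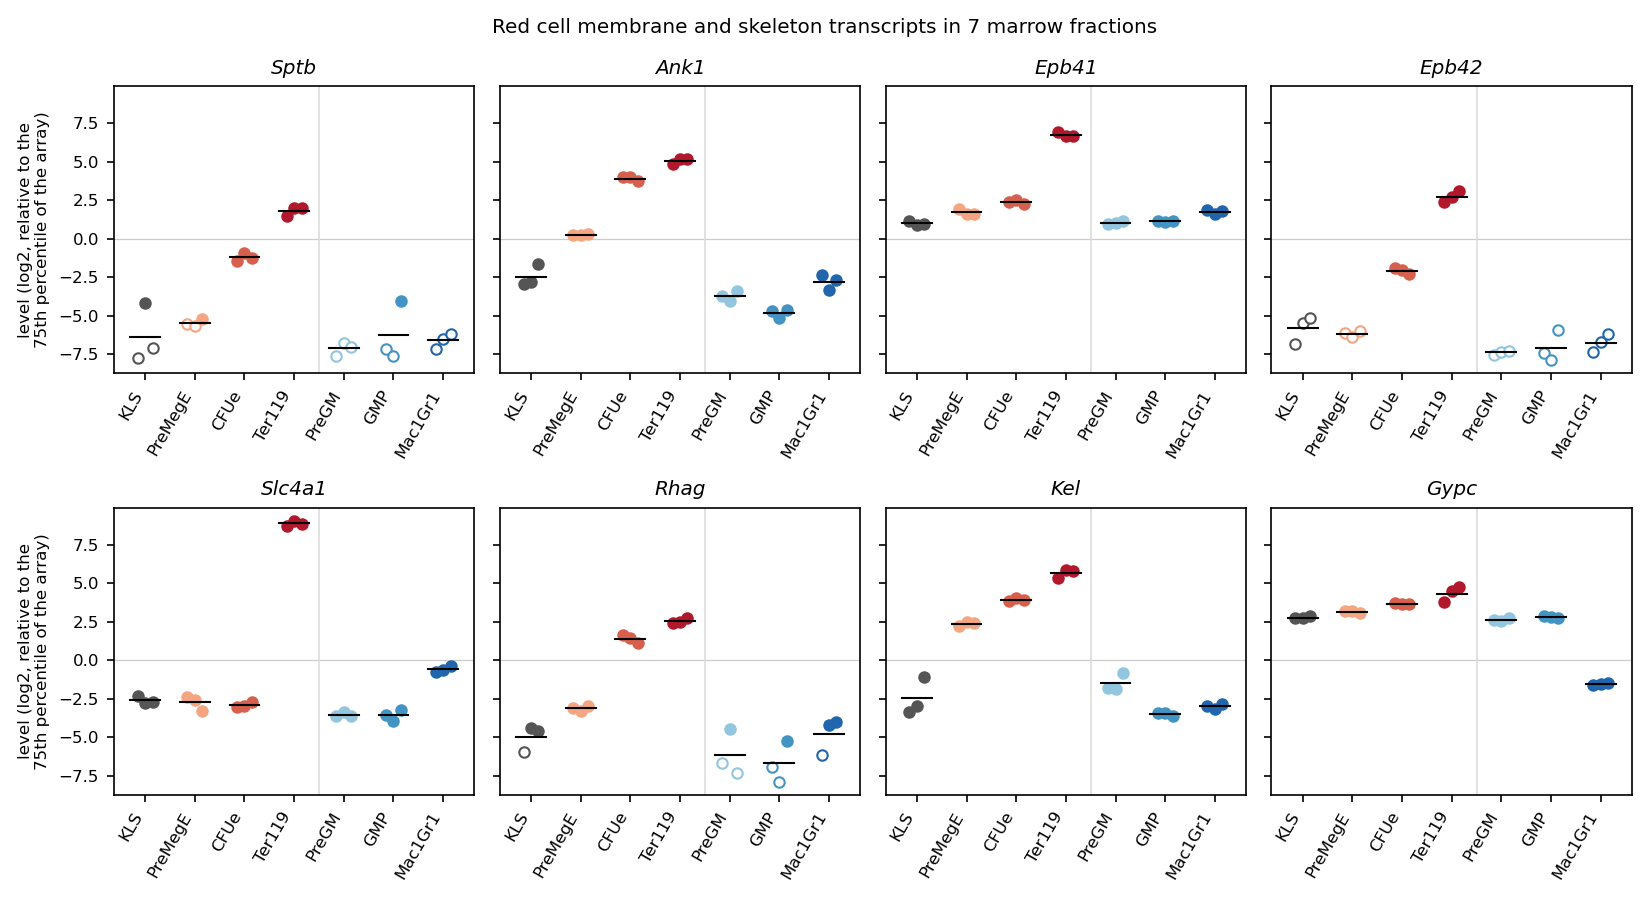
Levels of the 8 members on each of the 21 arrays, as log2 relative to the 75th percentile of the array, with fractions along the horizontal axis. Filled points were well above background and open points were not, and bars are means over 3 arrays. All 8 members had their highest mean in Ter119, at 8.89 for Slc4a1 and 4.34 for Gypc, and Gypc had its lowest mean, -1.52, in Mac1Gr1.

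Sptb encodes the erythroid beta spectrin chain, a part of the rods of the skeleton. Its level was -7.73, -4.19 and -7.09 on the KLS arrays, -5.52, -5.65 and -5.20 in PreMegE, -1.42, -0.95 and -1.24 in CFUe, and the Ter119 arrays gave 1.48, 2.0 and 2.0. It was -7.58, -6.73 and -6.99 in PreGM, -7.13, -7.59 and -4.05 in GMP, and -7.13, -6.48 and -6.17 in Mac1Gr1. CFUe and Ter119 lay apart from each other and above every array of the other fractions, where this probe, the brightest, was well above background on 1 array each of KLS, PreMegE and GMP and on none of PreGM or Mac1Gr1. Among these 5 dim fractions no neighbours in the order of means were called different.

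Ank1 encodes ankyrin-1, the adaptor between spectrin and band 3. KLS gave levels of -2.93, -2.78 and -1.63, PreMegE 0.26, 0.27 and 0.31, CFUe 4.01, 4.01 and 3.74, and Ter119 4.87, 5.19 and 5.19. The myeloid arrays gave -3.68, -4.04 and -3.41 in PreGM, -4.65, -5.15 and -4.62 in GMP, and -2.31, -3.32 and -2.66 in Mac1Gr1. Each erythroid fraction lay above the one before it with no overlap, and GMP lay below all other fractions. The order of means was Ter119, CFUe, PreMegE, KLS, Mac1Gr1, PreGM and GMP, in which KLS and Mac1Gr1 (difference 0.32, adjusted p 0.3393) and Mac1Gr1 and PreGM (0.94, under 2-fold) were the neighbours not called different.

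Epb41 encodes protein 4.1, which strengthens the junction of spectrin with actin. Levels were 1.18, 0.91 and 0.99 in KLS, 1.94, 1.64 and 1.59 in PreMegE, 2.43, 2.52 and 2.29 in CFUe, and the Ter119 arrays gave 6.94, 6.68 and 6.67. In PreGM they were 0.96, 1.0 and 1.15, in GMP 1.16, 1.07 and 1.18, and in Mac1Gr1 1.87, 1.64 and 1.79. The transcript was well above background on every array, and Ter119 alone was called different from its neighbour in the order, CFUe. KLS, PreGM and GMP overlapped, and so did PreMegE and Mac1Gr1.

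Epb42 encodes protein 4.2, a relative of the transglutaminases that has lost their activity and binds band 3 and ankyrin. It was well above background in CFUe, at -1.89, -2.01 and -2.25, and in Ter119, at 2.37, 2.69 and 3.10. None of the other 15 arrays gave a signal well above background, with levels from -7.84 to -5.16. No order can be read among KLS, PreMegE, PreGM, GMP and Mac1Gr1 for this gene.

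Slc4a1 encodes band 3, the chloride and bicarbonate exchanger that anchors the skeleton to the membrane. It read -2.31, -2.76 and -2.69 in KLS, -2.38, -2.55 and -3.26 in PreMegE, -3.04, -2.95 and -2.68 in CFUe, and the Ter119 arrays gave 8.74, 9.08 and 8.85. PreGM gave -3.59, -3.37 and -3.61, GMP -3.53, -3.91 and -3.21, and Mac1Gr1 -0.75, -0.64 and -0.34. KLS, PreMegE and CFUe overlapped, Ter119 lay far above all other fractions, and Mac1Gr1 came second, above every progenitor array. The gap from Mac1Gr1 to KLS, the next in the order, was 2.01 (adjusted p 2.398e-07, limma).

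Rhag encodes the Rh-associated glycoprotein, the core of the Rh complex and a channel for ammonia. Its levels were -5.95, -4.38 and -4.57 in KLS, -3.09, -3.31 and -2.95 in PreMegE, 1.64, 1.46 and 1.16 in CFUe, and the Ter119 arrays gave 2.41, 2.50 and 2.77. In the myeloid fractions they were -6.65, -4.46 and -7.29 in PreGM, -6.94, -7.89 and -5.21 in GMP, and -6.16, -4.17 and -4.01 in Mac1Gr1. CFUe and Ter119 lay above all other arrays, and each of the 3 PreMegE arrays lay above every KLS and myeloid array. KLS had 2 arrays well above background, PreGM 1, GMP 1 and Mac1Gr1 2, so the levels there are near the floor of the array.

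Kel encodes the Kell blood group protein, an endopeptidase that cuts endothelin precursors and is bound to the XK protein. KLS gave -3.33, -2.95 and -1.05, PreMegE 2.22, 2.48 and 2.42, CFUe 3.85, 4.03 and 3.94, and Ter119 5.35, 5.87 and 5.81. PreGM gave -1.80, -1.83 and -0.81, GMP -3.42, -3.44 and -3.59, and Mac1Gr1 -2.98, -3.15 and -2.83. The 4 erythroid-side fractions were in strict order with no overlap, and PreMegE already lay above every KLS and myeloid array. The third KLS array stood well above the other two.

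Gypc encodes glycophorin C, the membrane partner of protein 4.1, and is known to be made in many blood cells. Its levels were 2.73, 2.73 and 2.89 in KLS, 3.19, 3.22 and 3.09 in PreMegE, 3.72, 3.68 and 3.66 in CFUe, and the Ter119 arrays gave 3.77, 4.48 and 4.76. In PreGM they were 2.60, 2.56 and 2.75, in GMP 2.91, 2.80 and 2.75, and in Mac1Gr1 -1.60, -1.50 and -1.44. From KLS to Ter119 the mean went from 2.79 to 4.34, a range much narrower than that of the other members, and the Mac1Gr1 arrays lay far below all others. PreGM and Mac1Gr1 were the only neighbours in the order called different (4.15, adjusted p 8.445e-13).

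The first erythroid comparison, PreMegE with KLS, asks what comes up as multipotent cells take the erythroid and megakaryocytic path. Kel rose by 4.82 ± 0.41 (SE) on the log2 scale (28.3-fold, limma adjusted p 1.04e-07) and Ank1 by 2.72 ± 0.30 (6.6-fold, adjusted p 2.141e-06). These 2 of the 8 members were called higher and none lower, where 3.55% of the 29527 probes tested were called higher and 8.86% lower. A call needs an adjusted p under 0.05, with Benjamini-Hochberg adjustment over all probes tested, and 2-fold or more. The median change of the members was 0.79, beside 0.13 over all probes. Rhag differed by 1.85 ± 0.72 (adjusted p 0.07126) and was called only under other settings, at 2.04 with quantile scaling, 2.08 in the authors' normalized values and 1.85 when these fractions were fitted alone. Epb41 differed by 0.70 (adjusted p 0.0003006), under 2-fold, and Sptb by 0.88 ± 0.81 (adjusted p 0.4579), though its dimmest probe, measured on all PreMegE arrays, gave 2.69 (adjusted p 0.00351). Megakaryocyte markers were at their highest in PreMegE, with a summed log2 level of 5.53 to 5.83, against 4.08 to 4.34 in KLS, while macrophage markers went from 4.82 to 6.30 in KLS, their highest, to -0.10 to 0.71. The part of either list in these changes was not tested.

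The second comparison, CFUe with PreMegE, covers commitment to the erythroid lineage. Rhag rose by 4.54 ± 0.72 (23.3-fold, adjusted p 5.3e-05), Sptb, measured on 1 PreMegE array, by 4.25 ± 0.81 (19.1-fold, adjusted p 0.0002892), Ank1 by 3.64 ± 0.30 (12.5-fold, adjusted p 3.289e-08) and Kel by 1.56 ± 0.41 (2.96-fold, adjusted p 0.003972). Epb42 rose at least 11.1-fold (adjusted p 8.318e-07), set against the lowest signal well above background in PreMegE, where it was not measured on any array. In all, 5 of 8 members were called higher and none lower, against 9.96% of probes called higher and 14.7% lower. Of these, Sptb and Epb42 passed the filter through CFUe and Ter119 alone and could hardly have been called lower. The median change was 2.60 (2.52 with Epb42 at its bound) beside 0.12 over all probes. Slc4a1 gave -0.16 ± 0.22 (adjusted p 0.569), Epb41 0.69 and Gypc 0.52, the last pair at adjusted p 0.000139 and 0.01776 but under 2-fold. On the slide that held both a PreMegE and a CFUe array, the differences were 3.75 for Ank1, 4.56 for Rhag and 1.81 for Kel, and Sptb and Epb42 were below background on that PreMegE array. Of 13 granulocytic markers, the summed log2 level lay between 6.39 and 6.51 on the PreMegE arrays with all of them measured and between 2.44 and 5.37 in CFUe, and their part in these changes was not tested.

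The third comparison, Ter119 with CFUe, covers terminal maturation. Slc4a1 rose by 11.78 ± 0.22 (3517-fold, adjusted p 3.173e-16), Epb42 by 4.77 ± 0.44 (27.3-fold, adjusted p 3.032e-08), Epb41 by 4.35 ± 0.12 (20.4-fold, adjusted p 1.205e-14) and Sptb by 3.03 ± 0.81 (8.15-fold, adjusted p 0.002654). Smaller rises were those of Kel, 1.74 ± 0.41 (adjusted p 0.0009657), and Ank1, 1.16 ± 0.30 (adjusted p 0.001934). The members called higher were 6 of 8, with none lower, against 29.2% of probes called higher and 28.0% lower, and their median change was 2.38 beside 0.05 over all probes. Rhag gave 1.14 ± 0.72 (adjusted p 0.1609) and Gypc 0.65 ± 0.17 (adjusted p 0.00245, under 2-fold). Quantile scaling called both higher, at 1.51 and 1.07. Rhag was called too with normexp (1.02), in the authors' normalized values (1.49) and when these fractions were fitted alone (1.14, adjusted p 0.001321). Scaled to spike-in RNAs, the median of all probes shifted to -1.33, and Slc4a1 (10.40), Epb42 (3.39) and Epb41 (2.97) remained called, whereas Sptb was at 1.65 (adjusted p 0.05177), Kel at 0.35, and Ank1 (-0.22), Rhag (-0.24) and Gypc (-0.73) turned sign without a call. Both scalings subtract a constant per array, so the place of a member relative to the median of all probes is the same by construction. Blocked on slide, Ank1 was at 0.91, under 2-fold.

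All 13 granulocytic markers were well above background on every Ter119 array, with a summed log2 level of 12.21 to 12.54 beside 12.44 to 12.61 in Mac1Gr1, and so were 6 of 6 B cell markers (summed level 6.59 to 7.12), 5 of 5 T cell markers (2.72 to 2.89) and 10 of 10 macrophage markers (3.25 to 3.34). Camp, a neutrophil granule gene, read 8.52 ± 0.05 in Ter119 and 9.13 ± 0.11 in Mac1Gr1. These fractions are bulk samples, so fewer cells of a type and less RNA per cell cannot be told apart. All 8 members were called higher in Ter119 than in Mac1Gr1, though Sptb and Epb42, given the filter, could hardly have been called lower. The changes there were 9.47 ± 0.22 for Slc4a1 (708-fold, adjusted p 3.467e-15), 8.66 ± 0.41 for Kel, 7.85 ± 0.30 for Ank1, 7.34 ± 0.72 for Rhag, 5.85 ± 0.17 for Gypc and 4.99 ± 0.12 for Epb41. Epb42 was at least 175-fold and Sptb at least 94.0-fold higher on their brightest probes, neither of which was well above background in Mac1Gr1. A dimmer Sptb probe, with 1 Mac1Gr1 array and no Ter119 array well above background, gave -0.13. Of all probes tested, 22.0% were called higher and 19.9% lower in Ter119. The median was 8.13 for the members (7.39 with both at their bound) beside 0.06 over all probes.

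**Figure D2:**
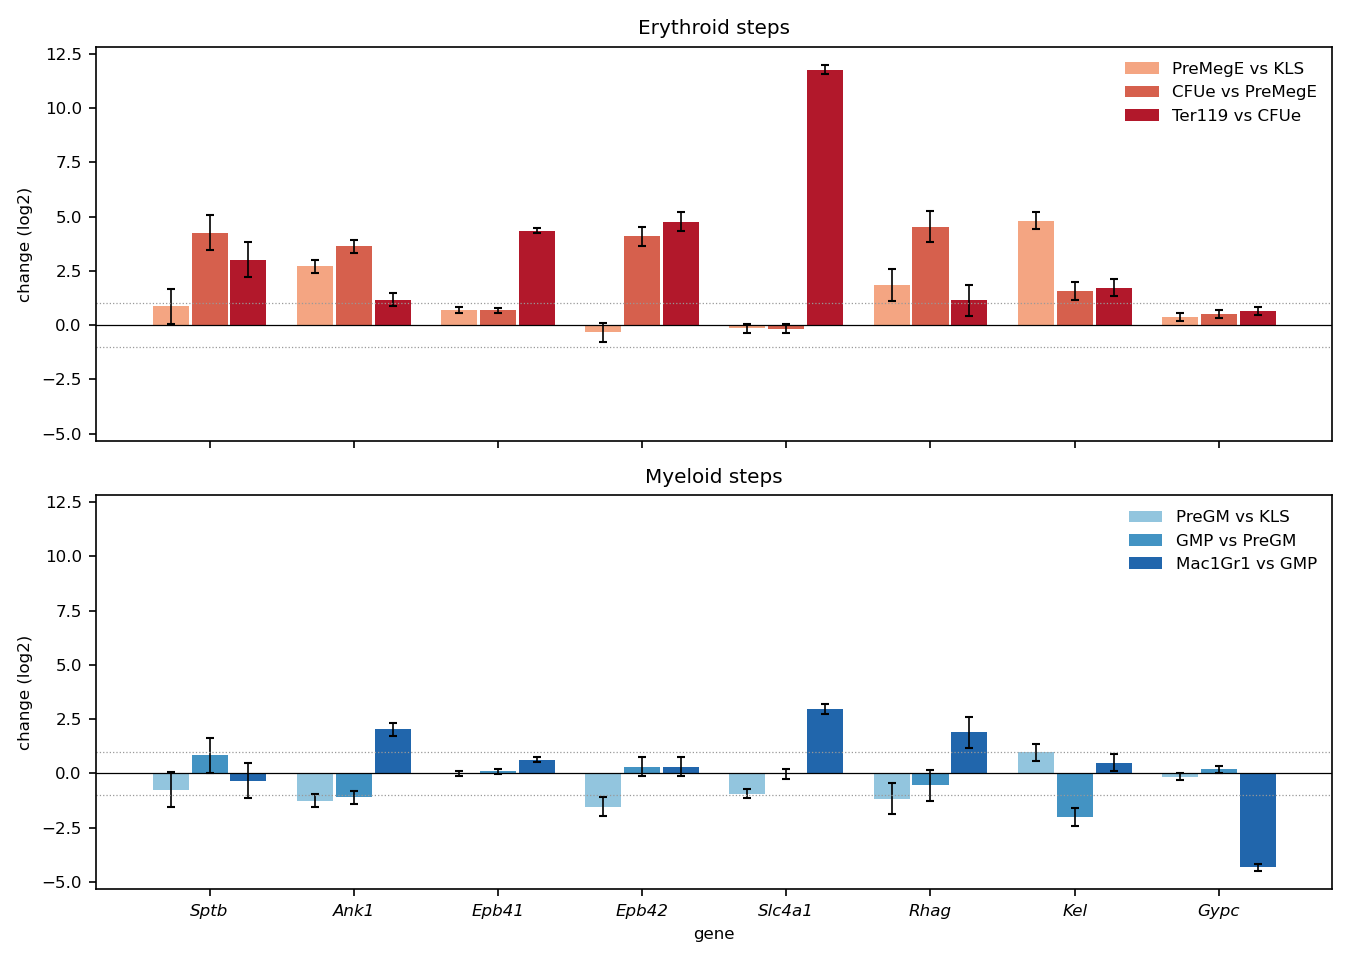
Change of each member at the 3 erythroid steps (top) and the 3 myeloid steps (bottom), as log2 differences of fraction means with bars of 1 SE from the limma fit. Dotted lines mark a 2-fold change in either direction. Slc4a1 has its whole rise at Ter119 vs CFUe (11.78), Rhag its largest at CFUe vs PreMegE (4.54), Kel its largest at PreMegE vs KLS (4.82), and Gypc its largest change at Mac1Gr1 vs GMP (-4.34). Epb42 bars between fractions below background (PreMegE vs KLS and all myeloid steps) carry no fold.

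Taken over the whole path from KLS to Ter119, the 5 members well above background on every KLS array differed in when the rise was made. Kel had reached 59.4% of its log2 rise in PreMegE and 78.6% in CFUe. For Ank1 the shares were 36.2% and 84.5%, for Gypc 24.6% and 58.1%, and for Epb41 12.1% and 24.2%. Slc4a1 stood at -1.24% and -2.64%, having made none of its rise of 11.48 before Ter119. These shares depend on the scaling. Scaled to spike-in RNAs, Gypc gave -0.08 from KLS to PreMegE, 0.004 to CFUe and -0.73 to Ter119, none of them called. On that scale it had no rise to divide. Ank1 gave 2.26, 3.13 and -0.22 at the same steps, the last without a call, so its whole rise lay before Ter119. At the last step Kel gave 0.35, also without a call, while Epb41 (2.97) and Slc4a1 (10.40) still rose. CFUe with KLS gave 6 members higher and none lower, against 17.3% of probes called higher and 19.1% lower, with Rhag at 6.39 ± 0.72, Kel at 6.39 ± 0.41, Ank1 at 6.37 ± 0.30, Sptb at 5.13 ± 0.81, Epb41 at 1.39 ± 0.12 and Epb42 at least 10.3-fold up. Sptb and Epb42, which passed the filter through CFUe and Ter119 alone, could hardly have been called lower here. Sptb was well above background on 1 KLS array and Rhag on 2. Slc4a1 was at -0.30 (adjusted p 0.2393) and Gypc at 0.90 (adjusted p 0.0002065, under 2-fold). Under spike-in scaling, which put the median of all probes at -0.74, Epb41 was at 0.41 (adjusted p 0.2284) and Slc4a1 at -1.28, so that 5 members were called higher and 1 lower.

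On the myeloid side, PreGM was first compared with KLS. Ank1 fell by 1.26 ± 0.30 (2.40-fold, adjusted p 0.005153), and Epb42 was called lower although neither fraction had an array well above background, so that no fold is given for it. These were 2 of 8 members, against 6.52% of probes called lower and 2.11% higher. Ank1 was at -0.85, under 2-fold, without the third KLS array, the highest of its fraction, and at -0.67 with normexp background correction. Kel gave 0.96 ± 0.41 (adjusted p 0.09521) and 1.66, then called, without the third KLS array. Slc4a1 gave -0.93 (adjusted p 0.004913), just under 2-fold, and was called lower with spike-in scaling (-1.55).

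From PreGM to GMP, Kel fell by 2.0 ± 0.41 (4.01-fold, adjusted p 0.001464) and Ank1 by 1.1 ± 0.30 (2.14-fold, adjusted p 0.01126), 2 of 8 against 6.36% of probes called lower and 4.01% higher. Ank1 was at -0.95 without the third PreGM array, at -0.93 without the second GMP array, and at -0.60 with normexp. Spike-in scaling moved the median of all probes by 0.99, and on it neither was called (Kel -0.99, Ank1 -0.08) while Epb41 (1.12) and Gypc (1.20) were called higher, as were Sptb and Epb42, of which PreGM had no array and GMP at most 1 well above background. No other member was called at this step at the 75th percentile scaling, and Epb41, for one, changed by 0.10 ± 0.12.

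From GMP to Mac1Gr1, Gypc fell by 4.34 ± 0.17 (20.2-fold, adjusted p 5.025e-13), where 27.6% of probes were called lower. Slc4a1 rose by 2.97 ± 0.22 (7.83-fold, adjusted p 1.46e-09), Ank1 by 2.04 ± 0.30 (4.12-fold, adjusted p 8.168e-06) and Rhag by 1.90 ± 0.72 (adjusted p 0.02517), 3 of 8 against 29.1% of probes called higher. The fall of Gypc was larger under spike-in scaling (-6.37, with the median of all probes at -1.86). On that scale no member was called higher and 5 lower. Slc4a1 gave 0.94, under 2-fold, Ank1 0.01, and Rhag turned to -0.14, while Kel (-1.54) and Epb41 (-1.40) turned to calls lower. The others called lower were Gypc and, with at most 1 of their 6 arrays well above background, Sptb and Epb42. On other probes or fits, Ank1 gave 0.67 on its dimmest probe, Epb41 was called higher on its dimmer one (1.67), and Kel was called higher when slide was a block (1.35). The call on Rhag, which overlapped between the fractions, was also lost in the fit blocked on slide (1.38, adjusted p 0.1324) and without the first or second GMP array or the second or the third Mac1Gr1 array (1.29 to 1.77).

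All 10 erythroid markers measured were well above background on every Mac1Gr1 array, with a summed log2 level of 5.26 to 5.39 beside 3.75 to 3.91 in GMP. Alas2, the first enzyme of haem synthesis in red cells, read -1.29 ± 0.19 in Mac1Gr1 and -5.43 ± 0.69 in GMP, and Hba-a1, an alpha globin, 3.02 ± 0.26 and -1.58 ± 0.18. Their part in the rises of Slc4a1, Ank1 and Rhag was not tested. The brightest probes of Sptb, Epb42 and Tmod1 were not well above background on any Mac1Gr1 array, and Klf1 and Gata1, erythroid transcription factors, read -4.00 ± 0.15 and -3.28 ± 0.21 there.

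**Figure D3:**
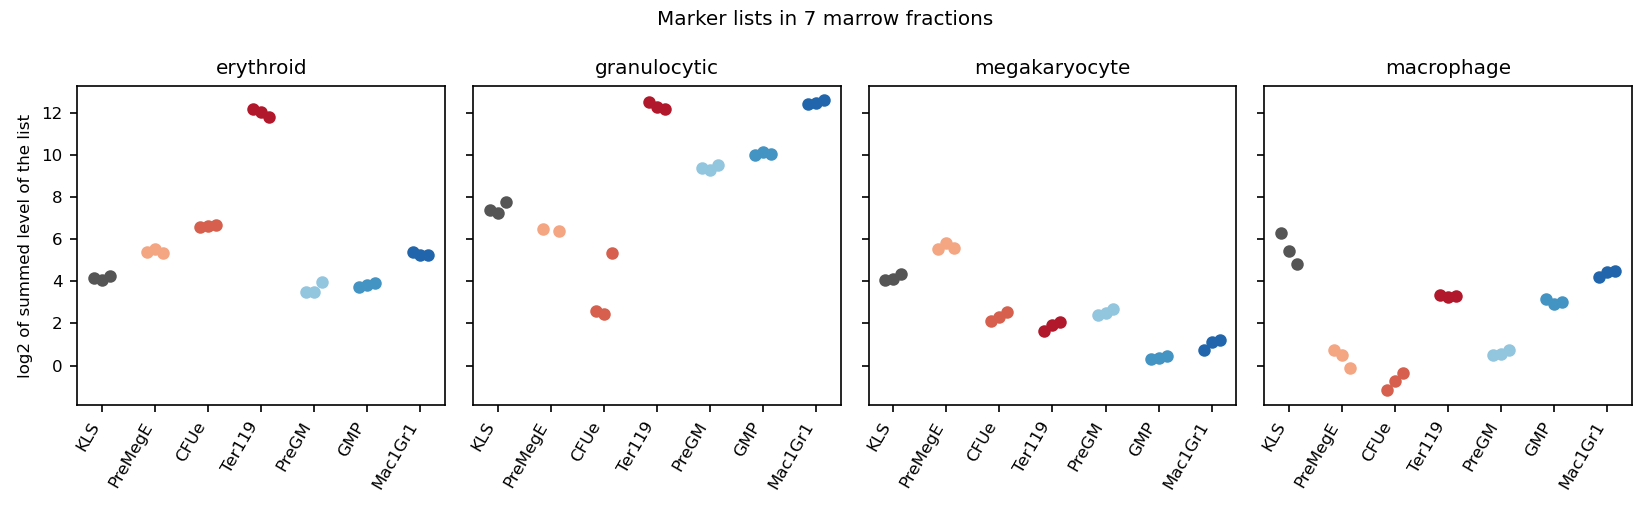
Summed level of 4 marker lists on each array, as log2 of the sum of linear levels relative to the 75th percentile, with fractions along the horizontal axis. The erythroid sum is highest in Ter119 (11.81 to 12.20), and the granulocytic sum reaches 12.21 to 12.54 in Ter119 and 12.44 to 12.61 in Mac1Gr1. One PreMegE point is missing from the granulocytic panel because a marker was left out as an outlier spot on that array.

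The lineages were next set side by side at each stage. PreMegE exceeded PreGM in Ank1 by 3.99 ± 0.30 (15.8-fold, adjusted p 2.91e-08), in Kel by 3.86 ± 0.41 (14.5-fold, adjusted p 1.653e-06) and in Rhag by 3.01 ± 0.72 (8.07-fold, adjusted p 0.004544), which made 3 of 8 members against 5.81% of probes called higher and 6.23% lower. On the 2 slides that held both fractions, Ank1 differed by 3.94 and 3.71. Rhag was well above background on 1 of the PreGM arrays. Rhag was at 0.97, just under 2-fold, with normexp. Sptb (1.64, adjusted p 0.1525) was called higher too on its dimmest probe (2.56), with quantile scaling, in the authors' normalized values and when these fractions were fitted alone.

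CFUe exceeded GMP in 6 of 8 members, against 12.1% of probes called higher and 14.2% lower. Sptb and Epb42, given the filter, could hardly have been called lower. Ank1 was higher by 8.73 ± 0.30 (423-fold, adjusted p 3.125e-13), Rhag by 8.10 ± 0.72, Kel by 7.42 ± 0.41 (172-fold, adjusted p 1.013e-10), Sptb by 5.05 ± 0.81 and Epb41 by 1.28 ± 0.12, and Epb42 was at least 10.3-fold higher. Rhag and Sptb were each well above background on 1 GMP array, so their sizes rest in part on background. Epb41 turned to -0.10 under spike-in scaling, where the median of all probes was -1.15. Slc4a1 (0.66, adjusted p 0.01824) and Gypc (0.86, adjusted p 0.000425) stayed under 2-fold.

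Whether a step differed between the lineages was tested directly, as the erythroid change minus the myeloid change. For the second step, CFUe vs PreMegE less GMP vs PreGM, the difference was 5.09 ± 1.02 for Rhag (adjusted p 0.0009459), 4.74 ± 0.42 for Ank1 (adjusted p 2.45e-07), 3.57 ± 0.58 for Kel and 3.41 ± 1.14 for Sptb (adjusted p 0.02806). Epb42 was called as well, but it was below background in PreMegE, PreGM and GMP. Sptb had no PreGM array and 1 array each of PreMegE and GMP above background, and Rhag had 1 array each of PreGM and GMP above it. The fitted differences of Epb42, Sptb and Rhag are therefore not measured sizes. The members called were 5 of 8, against 8.38% of probes called higher and 11.8% lower. The erythroid change of Sptb and Epb42 could, given the filter, hardly have been downward. Epb41 differed by 0.59 (under 2-fold), Gypc by 0.33 and Slc4a1 by -0.14. Sptb lost the call when slide was a block (3.08, adjusted p 0.07125), with spike-in scaling (1.88), and without the second PreMegE (3.32), CFUe (3.28) or PreGM (3.23) array or the first (2.98) or second (2.74) GMP array. Spike-in scaling, with the median of all probes at -1.39, gave 4 members higher and 2 lower, Slc4a1 (-1.67) and Gypc (-1.20).

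For the third step, Ter119 vs CFUe less Mac1Gr1 vs GMP, Slc4a1 differed by 8.81 ± 0.31 (adjusted p 2.082e-12), Gypc by 4.99 ± 0.24 (adjusted p 6.411e-11), Epb41 by 3.72 ± 0.17 and Sptb by 3.37 ± 1.14 (adjusted p 0.01912). Epb42 was called too, with both of its myeloid fractions below background, and Sptb had 1 GMP and no Mac1Gr1 array above it, so the fitted values of both rest on background at the myeloid step. Again 5 of 8 members were called, against 20.9% of probes called higher and 19.0% lower. For Gypc the difference was made up of -4.34 at the myeloid and 0.65 at the erythroid step. Kel (1.24, adjusted p 0.07902) was not called, though it was with quantile scaling (1.78), with spike-in scaling (1.89), in the authors' normalized values (1.67) and when these fractions were fitted alone (adjusted p 0.0007717). Ank1 (-0.88, adjusted p 0.08783) and Rhag (-0.76, adjusted p 0.5573) were not called. Blocked on slide, Sptb was not called (3.33, adjusted p 0.08696) and Ank1 was called lower (-1.88, adjusted p 0.02412), as it was without the second Mac1Gr1 array (-1.16).

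Several members had more than 1 probe. The 5 probes of Ank1 all had their lowest erythroid-side mean in KLS and their highest in Ter119, and so did both probes of Epb41. For Epb42 neither probe was well above background outside CFUe and Ter119, and the second read -2.41 ± 0.29 in CFUe and 3.33 ± 0.07 in Ter119. Of the 3 probes of Sptb, a second ran like the brightest one, at -5.42 ± 0.41 in PreMegE, -1.72 ± 0.25 in CFUe and 0.78 ± 0.39 in Ter119. The third did not. It read -3.73 ± 0.12 in PreMegE, -4.11 ± 0.17 in CFUe and -5.12 ± 0.53 in Ter119, where no array was well above background, so the rises of Sptb from PreMegE to CFUe and from CFUe to Ter119 are those of 2 of its 3 probes.

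**Figure D4:**
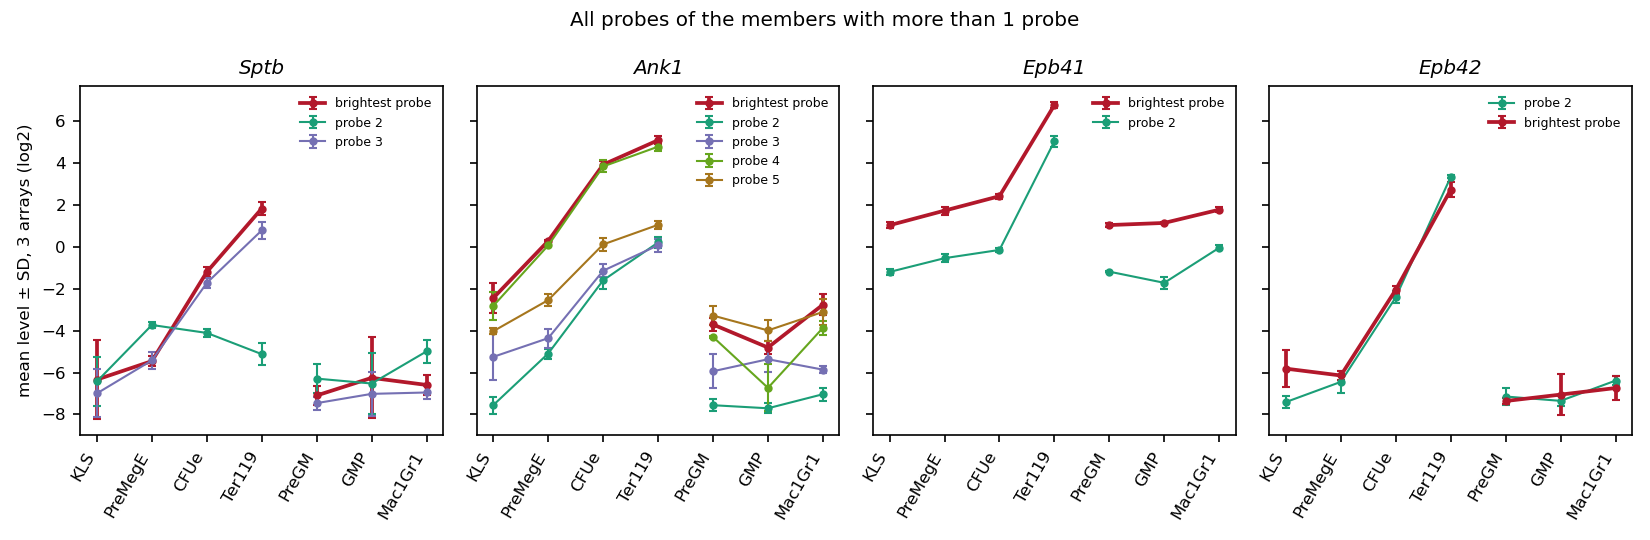
Mean level of every probe of Sptb, Ank1, Epb41 and Epb42 in the 7 fractions, in log2 relative to the 75th percentile, with bars of 1 SD over 3 arrays. Heavy lines are the probes used. One Sptb probe runs against the others, from -3.73 in PreMegE to -5.12 in Ter119.

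Across the 7 fraction means, the members fell along different profiles. Ank1 and Rhag were closest (Pearson r 0.993 over 7 fractions), followed by Sptb and Epb42 (0.985), Ank1 and Kel (0.964) and Slc4a1 and Epb41 (0.964, both set by Ter119). Gypc ran least like the rest, with r from 0.225 (Slc4a1) to 0.631 (Kel). The points share arrays and scaling, and the dim fractions of Sptb and Epb42 hold background values, so these are descriptions. Among the genes outside the 8 whose fraction means ran most like the members together were Ccdc153 (r 0.995), C87436 (0.990), Plaat1, Rnf123, Dmtn and Sowaha. For single members the closest were Snx32 for Slc4a1 (0.999), Blvrb for Ank1 (0.994), Adcyap1 for Epb41 (0.998), Metap2 for Epb42 (0.995), Trmo for Gypc (0.993), Car7 for Rhag (0.991) and Tspo2 for Kel (0.990). Some of these probes were dim. Plaat1 read -5.29 to -4.19, Adcyap1 -4.90 to -2.55, and the Metap2 probe -7.62 to -6.6 outside CFUe and Ter119. Such likenesses may rest in part on levels near the floor of the array.

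A list of 24 other red cell membrane and skeleton genes was measured alongside, and all 24 were tested. From KLS to PreMegE 11 were called higher and 3 lower (median 0.80), from PreMegE to CFUe 10 and 4 (median 0.72), and from CFUe to Ter119 9 and 5 (median 0.35). Over all probes the shares called higher and lower were 3.55% and 8.86%, 9.96% and 14.7%, and 29.2% and 28.0% at these steps, so that the last counts lie near the background.

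Rhd, the Rh protein that needs the Rhag product, was 5.55 ± 0.30 higher in CFUe than in PreMegE (adjusted p 2.849e-10) and gave 0.86 (under 2-fold) from there to Ter119. Add2, the beta adducin, also rose from PreMegE to CFUe, by 4.11 ± 0.49, and then gave -0.53 (adjusted p 0.3326). Dmtn, dematin of the actin junctions, rose at both steps, by 2.81 ± 0.39 and 4.04 ± 0.39. Mpp1, the p55 that joins protein 4.1 to glycophorin C, rose by 1.42 ± 0.10 and 2.73 ± 0.10.

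Other transport and blood group genes were high early. Aqp1, a water channel, rose by 4.83 ± 0.30 (adjusted p 2.381e-09), Ermap by 3.90 ± 0.64, Slc14a1, the urea transporter of the Kidd group, by 3.18 ± 0.20, and Icam4 by 3.17 ± 0.26 from KLS to PreMegE. At the last step Aqp1 fell by 1.1 ± 0.30, Xk, the partner of Kell, by 1.35 ± 0.23, Kcnn4 by 1.33 ± 0.23 and Piezo1, a stretch-gated channel, by 1.66 ± 0.14. Kel itself rose at that step. Tmod1, which caps actin in the skeleton, read -3.40 ± 0.20 in PreMegE, was not well above background in CFUe and stood at 1.77 ± 0.36 in Ter119, at least 99.2-fold above CFUe. Slc2a1, a glucose transporter, was lowest in CFUe, at -3.39 ± 0.47 beside 0.63 ± 0.10 in PreMegE and 0.58 ± 0.04 in Ter119.

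Between lineages, 15 of the 24 were higher and 2 lower in CFUe than in GMP, against 12.1% and 14.2% of all probes. In Ter119, 16 were higher and 3 lower than in Mac1Gr1, against 22.0% and 19.9% of all probes. Under spike-in scaling the split at Ter119 vs CFUe turned to 6 higher and 12 lower, and that of CFUe vs GMP came to 10 and 7. The median of all probes on that scale was -1.33 and -1.15, and the shares of all probes called are not given here. The list was written with earlier results of these data known.

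Nonerythroid relatives of the members were listed as well, 18 genes, of which 16 matched a probe and 13 were tested. From PreMegE to CFUe 0 were called higher and 5 lower (median -0.81, or -0.13 with genes at their bound), and at an unadjusted p under 0.05 the count higher by limma was 2, Epb41l5 and Rhcg, while a fit of these fractions alone called 1 higher. From CFUe to Ter119 6 were called higher and 1 lower, against 29.2% and 28.0% of all probes, and 14.7% were called lower at the step before. Sptbn1, the widely made beta spectrin, read 4.17 ± 0.11 in KLS, 2.76 ± 0.11 in PreMegE, -0.94 ± 0.68 in CFUe and again 3.10 ± 0.17 in Ter119, beside 4.19 ± 0.12 for GMP and 3.39 ± 0.15 for Mac1Gr1. The fall was of 3.70 ± 0.23 (adjusted p 1.245e-09) at the step at which Sptb rose, followed by a rise of 4.04 ± 0.23. Epb41l2 followed the same course (-1.26 ± 0.11, then 1.76 ± 0.11). With normexp 3 of the relatives were called lower from PreMegE to CFUe. Spike-in scaling, with the median of all probes at -1.33, turned the split at Ter119 vs CFUe to 3 higher and 5 lower. The granulocytic and B cell markers given above moved with these rises in Ter119, and their part was not tested.

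**Figure D5:**
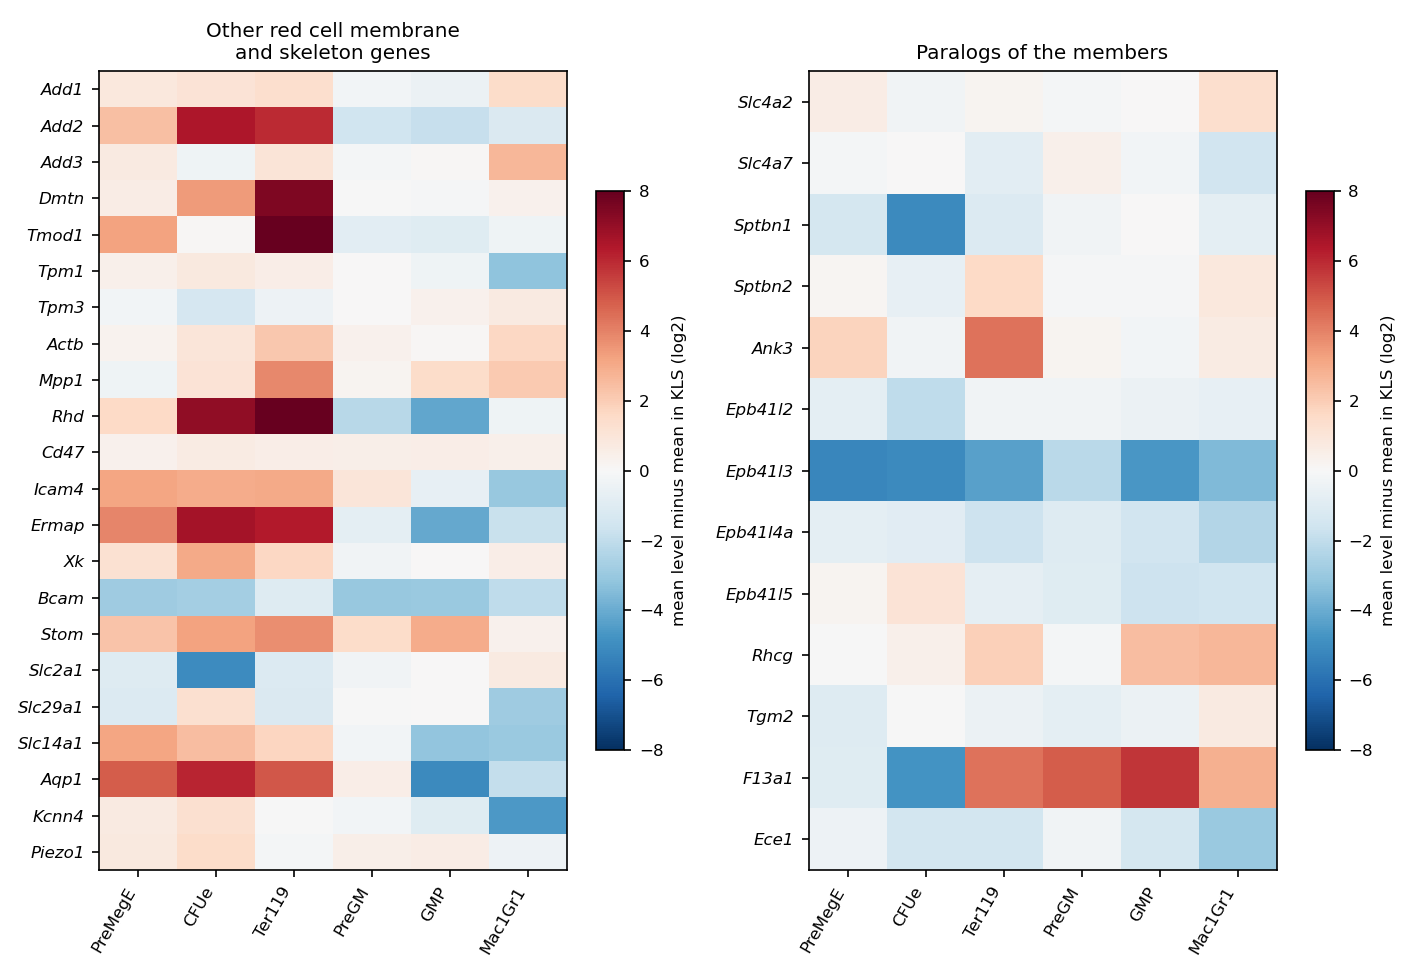
Mean level in each fraction minus the mean in KLS, in log2 units, for other red cell membrane and skeleton genes (left) and 13 relatives of the members that were tested (right). Red is above and blue below KLS, colours stop at 8 in either direction, and levels below background are drawn as measured. Rhd, Dmtn and Tmod1 are reddest in Ter119, and Sptbn1 is bluest in CFUe.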

How the data were processed

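RNA of 7 sorted fractions (21 samples) was labelled with Cy3 and hybridised to Agilent one-colour whole mouse genome arrays, which were read with Agilent Feature Extraction 10.7.1.1 according to the submitters' processing notes. The deposited files hold scanner intensity per spot, already background-subtracted by that software. The series table deposited by the authors holds log2 values of the same arrays. They ranked with the scanner values at 0.99997 or above within each array, and their normalization software is not given in the sources used here.

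Here control spots and outlier spots (80 to 283 an array) were left out, spots of a probe were averaged, and the log2 intensity minus the 75th percentile of its array was used. No spot was saturated. All arrays were scanned on 1 day, on 9 slides, and 56.4% to 77.4% of 41174 probes were well above background on an array. The number of arrays limits the precision. Symbols came from RefSeq accessions for 26690 probes (64.8%), so the remaining probes are unnamed here.

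The test covered 29527 probes that had, in 1 fraction or more, a signal well above background on each of its 3 arrays. It used limma 3.58.1 in R 4.3.3, with 7 fraction means and no block, through lmFit and eBayes and Benjamini-Hochberg adjustment within each of 12 comparisons. Levels were read with Python 3.11.15 and pandas 2.3.3 and drawn with matplotlib 3.10.9. Where a probe was not well above background in any array of 1 of the groups, the fold is a lower bound, set against the lowest signal well above background on each of those arrays or the signal of the probe, whichever was higher.

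All 8 members were named. The other genes that may be named are those of the lists of other membrane genes and of paralogs, up to 4 of each marker list (erythroid, granulocytic, megakaryocyte, macrophage, B cell, T cell and sorting antigens), the 8 genes most like the members together and the 1 most like each. Some genes that this rule takes in are counted but not reported by name here. The members and lists were chosen with earlier results of these data known. Alternatives were quantile and spike-in scaling (7 of 10 spike-in sequences), normexp with an offset of 50 on the median pixel signal, the series table, no filter, the dimmest probe of each gene, slide and replicate blocks, a fit of the compared fractions alone, no minimum fold, and leaving out each array. The code was tested on simulated data. Replicate numbers did not pair the samples across fractions.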

Additional observations from a re-analysis of the deposited data

Results flagged for a closer look

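The following changes differed between the erythroid and the myeloid path at the same step, by the limma test of the difference itself. At the second step (CFUe vs PreMegE less GMP vs PreGM) the erythroid change was greater for Rhag by 5.09, Ank1 by 4.74, Epb42 by 3.78, Kel by 3.57 and Sptb by 3.41 on the log2 scale. At the third (Ter119 vs CFUe less Mac1Gr1 vs GMP) it was greater for Slc4a1 by 8.81, Gypc by 4.99, Epb42 by 4.46, Epb41 by 3.72 and Sptb by 3.37. The values for Epb42 and Sptb, and the second-step value for Rhag, rest in part on arrays in which they were not well above background. Rhag was well above background on 1 array each of PreGM and GMP. These values are fitted differences and not measured sizes. Groups of 3 arrays were not searched for single arrays standing apart.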

How the results depend on the processing

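Of 1632 recomputed values, 1475 kept their direction and their side of the threshold, 38 lost the call and 52 gained one. The sign changed in 15 called under at least 1 of the settings and in 52 called under neither. These totals take in values that could not turn sign. The dimmest probe was the same probe for genes with only 1. Replicate blocks, no minimum fold, no filter and a fit of the compared fractions alone left each fold as it was. With spike-in scaling 8 of 96 values lost the call, 10 gained one and 7 turned sign with a call under at least 1 scaling. The number of members called in PreMegE vs PreGM, 3 at the settings used, was 5 with quantile scaling, in the series table and in the fit of these fractions alone, and 6 with no minimum fold. For Ter119 vs CFUe it was 3 instead of 6 with spike-in scaling. For GMP vs PreGM (2) it was 4, all higher, with spike-in scaling, and 1 with normexp or with the dimmest probe. For PreGM vs KLS (2) it was 0 with normexp, with the dimmest probe and in the fit of these fractions alone, and 1 with the slide as a block. Leaving out single arrays gave 1 to 2 members for GMP vs PreGM, 1 to 3 for PreGM vs KLS, 3 to 4 for Mac1Gr1 vs GMP and for PreMegE vs PreGM, 4 to 5 for the second step and 5 to 6 for the third, and changed no count elsewhere. Spike-in scaling turned the sign of Ank1 in Ter119 vs CFUe (-0.22), of Epb41 (-1.40), Epb42 (-1.72), Rhag (-0.14) and Kel (-1.54) in Mac1Gr1 vs GMP, of Epb41 in CFUe vs GMP (-0.10) and of Gypc at the second step (-1.20), and of 10 values called under neither scaling, among them Gypc (-0.73) and Rhag (-0.24) in Ter119 vs CFUe, Slc4a1 (-0.72) and Gypc (-0.51) in CFUe vs GMP and Epb41 at the second step (-0.94). The dimmest probe turned Sptb in CFUe vs PreMegE (-0.38), Ter119 vs CFUe (-1.01), Mac1Gr1 vs GMP (1.53), Ter119 vs Mac1Gr1 (-0.13), the second step (-0.14) and the third (-2.55), Epb42 in PreGM vs KLS (0.26) and Ank1 at the third step (1.14). Spike-in scaling subtracts another constant per array, so within a comparison it moved all members by the same amount. Why the scalings differ, and why probes of a gene do, was not tested. Pair correlations of equally numbered arrays ran from -0.37 to 0.37, with 9 of 30 over 0.1, so the numbers are not taken as pairs. With the replicate block 95 of 96 member values kept their call and direction, and Epb42 in PreMegE vs PreGM (1.22) gained a call with no array above background in either fraction. Signals near background limit Sptb, Epb42 and Rhag outside CFUe and Ter119.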
